A study of Mus with 9 samples.

Results

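Kidney RNA of mice injected with O304 was compared with that of mice injected with saline, all killed at 21 months of age. The comparison rests on 6 of the 9 libraries of the series, the 3 labelled 21 mo/O304 and the 3 labelled 21 mo, which were chosen by these labels alone. All mice were male C57BL/6 mice from which 1 kidney had been removed at 18 months of age. The treated mice then received daily intraperitoneal O304, 10 mg per kg of body weight, over 12 weeks, and the 21 mo mice received saline over the same time. The remaining 3 libraries, labelled 18 mo, came from mice killed 1 week after surgery without these injections, so that age, time after surgery and injection all separated them from the other groups, and their levels are given beside the comparison without a test. O304 was given to the whole animal at a single dose, and male mice alone were studied. Of 54532 genes in the table, 15902 had enough counts to be tested.

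O304 is a small molecule that activates AMPK, the AMP-activated protein kinase. AMPK is switched on when ATP runs low, and it turns cells from building lipid, sterol and protein towards burning fatty acids, renewing mitochondria and autophagy. This matters in the kidney because its proximal tubule relies heavily on mitochondria for ATP, with fatty acids as a main fuel. Fatty acids are oxidized in mitochondria and peroxisomes, under the control of the nuclear receptor PPARα. AMPK itself is regulated mainly by phosphorylation, which RNA levels do not show.

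The libraries held 15636378 to 18396725 counts on genes, and 1 count was worth 0.0458 to 0.0669 CPM. This unit, used below, sets a gene's count against the library's total after scaling by the TMM method of edgeR. Defining genes of the kidney were present in every library, as the label kidney requires. The proximal tubule gene Slc34a1 stood at 471 CPM or more and the loop gene Umod at 1404 CPM or more in each of the 6 libraries compared. The saline libraries were far apart from each other. Their biological coefficient of variation was 44.1%, against 20.6% in the O304 group and 18.0% in the 18 mo group. On the first principal component of log2 CPM, which held 51.8% of the variance, replicates 1 to 3 of the saline group lay at −16.2, 46.9 and 128.6, while the 3 O304 libraries lay between −29.2 and −22.5 and the 3 libraries of the 18 mo group between −39.4 and −21.0. Replicate 1 of the saline group thus lay near the O304 and 18 mo libraries, and replicates 2 and 3 stood apart. In whole tissue, fewer cells of a type and less RNA per cell cannot be told apart. The labels do not say whether the libraries of a group came from separate mice, so the p-values measure the spread between these libraries.

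No gene separated O304 from saline at an adjusted p under 0.05 in edgeR's quasi-likelihood test, which is 0% of 15902 genes, and the smallest adjusted p was 0.150, shared by 4 genes. At an unadjusted p under 0.05 the same test gave 1315 genes higher in the O304 group (8.27%) and 1974 lower (12.4%). The 3 O304 libraries lay above all 3 saline libraries for 1723 genes (10.8%) and below all 3 for 1666 genes (10.5%). With 3 libraries against 3, the exact permutation test of a single gene cannot give a two-sided p under 0.1. DESeq2 on all 9 libraries called 282 genes higher and 665 lower at an adjusted p under 0.05, and 113 and 356 on the 6 libraries compared. On log2(FPKM + 1) values, tested with limma, the split at an unadjusted p under 0.05 was 1563 higher and 1292 lower. The medians of gene lists below are followed, where leaving out 1 library changed their sign or moved them by over 1.5 times, by the most extreme such values and the library left out. The shares of all genes given above are the background for the counts of list members below. Since no gene passed the main test, levels are given below as measured in each library, and "higher" or "lower" describes these libraries.

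Which saline library entered the fit decided the count. Without replicate 1 of the saline group, 1741 of 16463 genes were higher in the O304 group (10.6%) and 2067 were lower (12.6%) at an adjusted p under 0.05 (edgeR's quasi-likelihood test). Without replicate 2 no gene passed, with 826 higher and 1648 lower at an unadjusted p under 0.05, and without replicate 3 a single gene passed, lower in the O304 group, with 1148 and 1121 at an unadjusted p under 0.05. Where calls "without saline replicate 1" are given below, they come from this fit of the remaining 8 libraries, in which the saline group is the 2 libraries that stood apart. Limma voom with a quality weight for each library called 3372 genes higher and 3156 lower. It gave saline replicate 2 a weight of 9.12 and saline replicates 1 and 3 weights of 0.223 and 0.132, so that its saline level was nearly that of 1 library. With 1 weight for each group it called no gene, with 1288 genes higher and 1284 lower at an unadjusted p under 0.05.

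**Figure D1:**
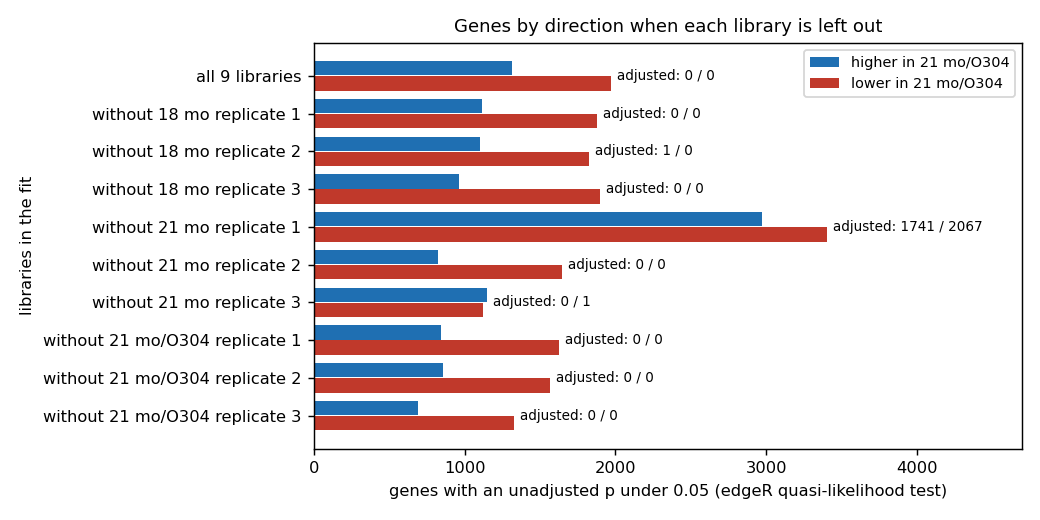
Number of genes with an unadjusted p under 0.05 (horizontal axis, edgeR's quasi-likelihood test) that were higher (blue) or lower (red) in the 21 mo/O304 than in the 21 mo group, for the fit to all 9 libraries and with each library left out in turn (vertical axis). The numbers beside the bars count genes at an adjusted p under 0.05, higher and lower, which reach 1741 and 2067 without replicate 1 of the 21 mo group and at most 1 elsewhere.

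On the high side, the 12 protein-coding genes with the smallest p-values and no overlap were Clip4, Lipe, Lhx1, G0s2, Mettl1, Hmcn2, Paqr7, Hsd17b11, Car3, Slc25a25, Trpm6 and Chst11. Lipe (ENSMUSG00000003123, chromosome 7, 25379527 to 25398710 of GRCm38), which encodes hormone-sensitive lipase, the enzyme that cleaves diacylglycerol and cholesterol esters, was measured at 42.4, 28.2 and 28.8 CPM in the O304 libraries. The saline libraries held 15.7, 14.4 and 15.2 CPM and the 18 mo libraries 17.03, 20.95 and 17.8 CPM. All 3 treated libraries were above the 6 others, with a log2 fold change against saline of 1.14 (SE 0.18), or 2.20-fold. G0s2, whose protein holds back adipose triglyceride lipase, stood at 59.02, 47.3 and 56.1 CPM with O304 and 32.9, 28.4 and 24.51 CPM with saline, a log2 fold change of 0.92 (SE 0.15), again above the 18 mo level of 36.03 to 43.3 CPM. Both proteins act at the lipid droplet and are abundant in fat cells. Adipocyte genes were high in the same libraries, with a mean log2 level of their list, relative to 18 mo, of 3.01, 1.10 and 2.29 with O304 and −0.28, −0.10 and 0.047 with saline, and their part in the values of Lipe and G0s2 was not tested. G0s2 lies within the span of Lamb3, and reads of the pair could be shared.

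Hsd17b11, a further protein of the lipid droplet, was at 272, 279 and 453 CPM with O304 against 156, 113 and 102 CPM with saline, and the treated libraries overlapped the 18 mo range of 266 to 313 CPM. Slc25a25 (chromosome 2, 32414487 to 32451445), the calcium-regulated carrier that loads mitochondria with ATP and magnesium, gave 308, 301 and 223 CPM with O304 and a narrow 62.6, 68.3 and 60.1 CPM with saline, which is a log2 fold change of 2.12 (SE 0.37) and 4.35-fold. One 18 mo library reached 189 CPM of Slc25a25 and the others 65.5 and 77.6 CPM, so the O304 libraries were above all 6 of the others. Trpm6 (chromosome 19, 18749983 to 18892510), the magnesium channel of the distal convoluted tubule, was at 32.2, 27.2 and 23.9 CPM against 11.8, 8.13 and 14.7 CPM in saline and 10.97 to 13.3 CPM in 18 mo. Its fitted level was 2.40-fold higher with O304, a log2 fold change of 1.26 (SE 0.22).

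Lhx1, a transcription factor of nephron formation, showed the same order, with 27.7, 30.4 and 26.6 CPM after O304 and 14.2, 10.3 and 8.06 CPM after saline. For Paqr7, a membrane progestin receptor, the treated libraries were nearly equal at 151, 156 and 155 CPM and the saline libraries spread from 25.6 to 64.1 CPM, with the 18 mo libraries at 121 to 167 CPM. Clip4, a microtubule-associated protein, was tight in saline at 8.83, 9.43 and 8.57 CPM and lay at 18.49, 21.3 and 30.4 CPM in the O304 libraries, a log2 fold change of 1.39 (SE 0.20). Mettl1, an enzyme that methylates tRNA, had a log2 fold change of 0.75 (SE 0.12), and Chst11, a chondroitin sulfotransferase, one of 0.73 (SE 0.13). Hmcn2, a protein of the matrix, was at 21.1, 22.2 and 26.55 CPM with O304 and 8.56, 5.85 and 2.89 CPM with saline. Car3, a carbonic anhydrase of fat and muscle, had the largest log2 fold change of the 12 at 3.94 (SE 0.68) and is taken up with the adipocyte genes below. The adjusted p was 0.175 for each of the 12 (edgeR's quasi-likelihood test). All 12 passed without saline replicate 1, where 10.6% of all genes passed on the high side. The 12 were picked from these same libraries by small p and no overlap, so their passing is not separate support. Of the 12, Lipe, Lhx1, G0s2, Slc25a25 and Trpm6 also lay above the 18 mo libraries, while in the remaining 7 the O304 and 18 mo ranges overlapped.

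**Figure D2:**
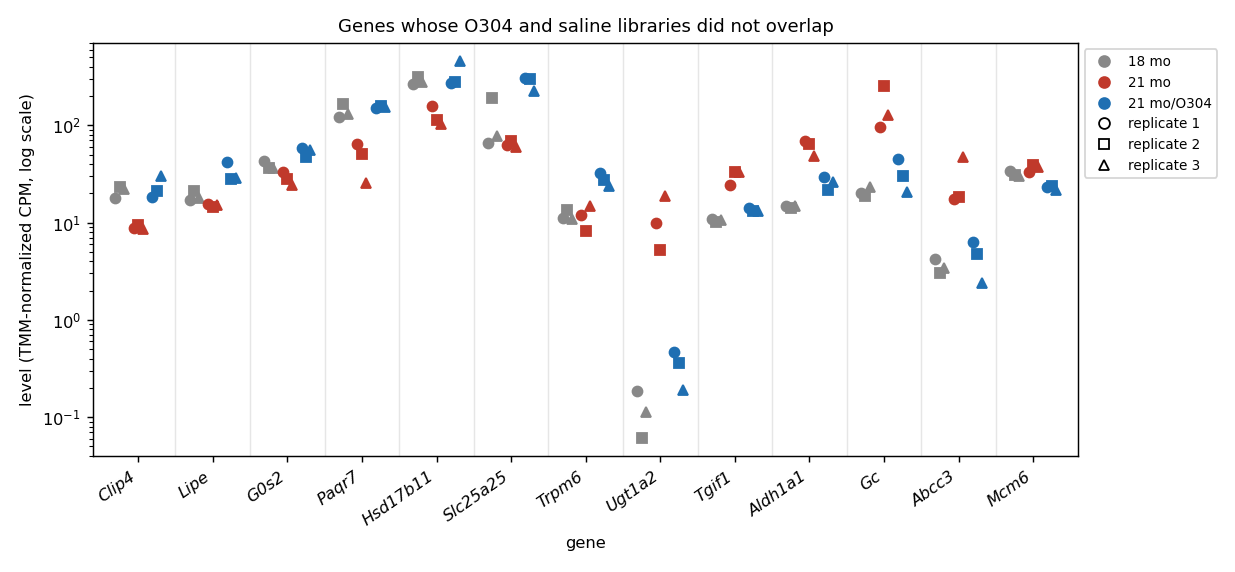
TMM-normalized CPM (vertical axis, log scale) of 13 genes (horizontal axis) in each library of the 18 mo (grey), 21 mo (red) and 21 mo/O304 (blue) groups, with the replicate number given by the shape of the point. The 7 genes from Clip4 to Trpm6 have every O304 point above every 21 mo point, and the 6 from Ugt1a2 to Mcm6 every O304 point below, for example Ugt1a2 at 0.191 to 0.465 CPM against 5.29 to 18.9 CPM.

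The 4 genes with the smallest p-values, Ugt1a2, Tgif1, Aldh1a1 and Prom1, were all lower with O304, and each was high in all 3 saline libraries. Ugt1a2 (ENSMUSG00000090171, chromosome 1, 88200601 to 88218997), a glucuronosyltransferase that couples drugs and other small molecules to glucuronic acid, was close to absent in the 18 mo libraries at 0.186, 0.0616 and 0.113 CPM. It was present in every saline library at 9.90, 5.29 and 18.9 CPM and near its 18 mo level again in the O304 libraries at 0.465, 0.358 and 0.191 CPM. The log2 fold change was −5.04 (SE 0.58), with an adjusted p of 0.15 (edgeR's quasi-likelihood test). Ugt1a2 shares its last exons and its span with the other Ugt1a genes, so reads on the shared exons cannot be assigned to it with certainty. Its neighbour Ugt1a10, chosen after its values were seen, held 2.85, 1.91 and 1.87 CPM at 18 mo, 32.4, 27.00 and 19.8 CPM with saline and 9.42, 6.97 and 0.255 CPM with O304.

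Aldh1a1, which makes retinoic acid from retinal, had a like order, with 14.9, 14.2 and 14.8 CPM at 18 mo, 69.6, 64.7 and 48.2 CPM with saline and 29.48, 21.8 and 26.3 CPM with O304. The treated libraries of Aldh1a1 lay between the other groups, overlapping neither, at a log2 fold change of −1.23 (SE 0.16) against saline. Gc, the vitamin D binding protein, was at 95.1, 256 and 129 CPM with saline and 45.2, 30.04 and 20.50 CPM with O304, beside 18.7 to 23.4 CPM at 18 mo, 5.01-fold lower in the fit. Abcc3, an efflux pump for bile acids and glucuronides, stood at 17.6, 18.53 and 47.7 CPM with saline against 6.28, 4.77 and 2.42 CPM with O304. The same held for Cbr3, a carbonyl reductase of drugs and quinones, at 16.4, 10.7 and 26.48 CPM against 5.29, 4.53 and 3.57 CPM. In each of these genes saline replicate 1 was high together with replicates 2 and 3, unlike in the injury genes described below.

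Tgif1, a transcriptional repressor in TGF-β and retinoid signalling, was lower in every O304 library, at 14.1, 13.3 and 13.3 CPM against 24.4, 33.02 and 32.8 CPM, with an adjusted p of 0.15 (edgeR's quasi-likelihood test) and a log2 fold change of −1.15 (SE 0.15). Prom1, the membrane protein CD133 of scattered tubule cells, was at 73.4, 60.02 and 49.98 CPM against 162, 170.0 and 249.7 CPM, and its log2 fold change was −1.67 (SE 0.22). Mcm6, a subunit of the replicative helicase, lay below both other groups at 23.3, 23.96 and 21.4 CPM, with 33.4, 39.4 and 36.9 CPM in saline and 30.3 to 33.8 CPM at 18 mo. So did Pafah1b3, a catalytic subunit of a platelet-activating factor acetylhydrolase, at 9.01, 8.34 and 7.83 CPM against 13.8, 16.9 and 19.9 CPM. Lrguk was at 0.233, 0.179 and 0.127 CPM against 0.736, 1.53 and 1.008 CPM, and it too lay below the 18 mo libraries. The log2 fold changes of Jpt2 and of Ssh2, a phosphatase that activates cofilin, were −0.83 (SE 0.14) and −1.03 (SE 0.18). All 12 lower genes passed without saline replicate 1, with log2 fold changes in that fit from −5.13 for Ugt1a2 to −0.75 for Mcm6. In that fit 12.6% of all genes passed on the low side, and these 12 were picked in the same way as the higher ones.

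The treated libraries also held genes at levels that neither other group reached. The 3 O304 libraries lay above all 6 of the others for 435 genes (2.74%) and below all 6 for 378 genes (2.38%). The heat shock proteins, the chaperones that fold proteins and whose genes answer to stress, were split between these groups. Of 29 genes, 4 were above all 6 other libraries and 4 below. The 4 below were Hspa1b, Hspa1a, Dnajb1 and Bag3. Hspa1b, an inducible HSP70, was at 12.4, 7.63 and 11.1 CPM with O304, 29.1, 138 and 53.3 CPM with saline and 37.1, 79.2 and 39.03 CPM at 18 mo, a log2 fold change against saline of −2.82 (SE 0.57). Its near-identical copy Hspa1a was at 6.98, 3.10 and 5.16 CPM against 10.3, 40.9 and 14.6 CPM with saline and 13.8, 40.4 and 21.9 CPM at 18 mo, and reads could be split between the pair. The co-chaperones Dnajb1 and Bag3 were lower by less. Dnajb1 was at 40.3, 43.98 and 43.04 CPM against 53.2, 84.2 and 50.2 CPM with saline, and Bag3, chosen after its values were seen, at 32.2, 28.1 and 29.48 CPM against 34.8, 52.7 and 36.3 CPM.

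The 4 above, chosen after their values were seen, were Hspd1 and the HSP90 genes Hsp90aa1, Hsp90ab1 and Hsp90b1. Hspd1, the mitochondrial HSP60, stood at 748, 799.6 and 793 CPM with O304 and 614, 419 and 190.2 CPM with saline, a log2 fold change of 0.94 (SE 0.36). Its partner Hspe1, which overlaps Hspd1 in the annotation, was at 201, 222 and 233 CPM with O304 and 167, 143 and 115 CPM with saline, and it overlapped the 18 mo range of 189 to 229 CPM. The cytosolic Hsp90ab1 was at 1691, 1917 and 1718 CPM against 1327, 1377 and 1183 CPM and 1134 to 1346 CPM at 18 mo, with a log2 fold change of 0.45 (SE 0.20) against saline. Its sister Hsp90aa1 was at 619, 807 and 640.2 CPM against 477, 556 and 299.8 CPM, and Hsp90b1 of the endoplasmic reticulum at 408, 528 and 447 CPM against 344, 402 and 245 CPM. In Hspd1 and the 3 HSP90 genes the treated libraries lay above the saline and the 18 mo libraries alike. Over the whole list 6 genes did not overlap saline on the high side and 7 on the low side, with a median log2 fold change of 0.17 (0.079 without saline replicate 3 and 0.28 without saline replicate 1) beside −0.019 over all genes tested.

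**Figure D3:**
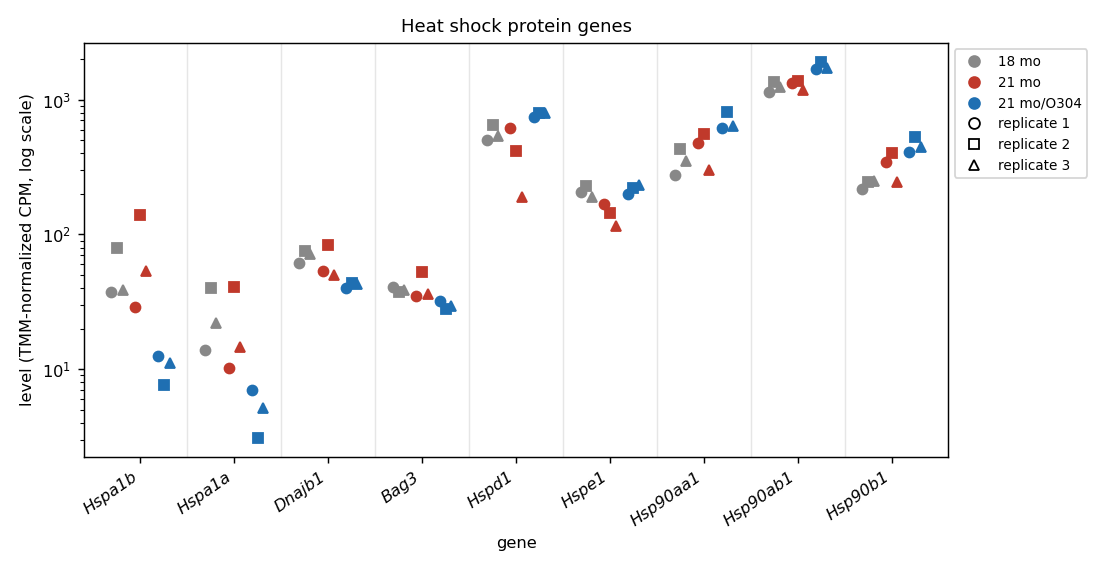
TMM-normalized CPM (vertical axis, log scale) of 9 heat shock protein genes (horizontal axis) by library, coloured by group and shaped by replicate number. The O304 points of Hspa1b, Hspa1a, Dnajb1 and Bag3 lie below all other points, as with Hspa1b at 7.63 to 12.4 CPM, and those of Hspd1, Hsp90aa1, Hsp90ab1 and Hsp90b1 above them.

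Other genes beyond both groups, also chosen after their values were seen, were spread over several functions. Stat3, the transcription factor that interleukin-6 and its relatives activate, was at 80.6, 80.3 and 76.3 CPM with O304, 105, 181 and 180.1 CPM with saline and 82.1 to 90.8 CPM at 18 mo, so that saline replicate 1 was only a little above the 18 mo libraries. Rbm3, an RNA-binding protein induced by cold, was at 39.7, 32.4 and 53.54 CPM against 69.1, 79.6 and 263 CPM and 70.00 to 78.4 CPM at 18 mo. Both genes were thus lowest in the treated libraries. On the high side, Smarca2, an ATPase of the SWI/SNF chromatin remodeller, was at 237, 252 and 274 CPM against 143, 90.6 and 49.1 CPM. The receptor phosphatase Ptpru was at 26.3, 34.1 and 22.9 CPM against 15.9, 10.4 and 12.3 CPM. The log2 fold changes were −0.98 (SE 0.20) for Stat3, −1.71 (SE 0.47) for Rbm3, 1.43 (SE 0.32) for Smarca2 and 1.11 (SE 0.20) for Ptpru.

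Genes of fatty acid metabolism were mostly higher with O304, with saline replicate 1 nearest to the treated libraries. Of 46 PPARα target genes, 14 did not overlap saline on the high side and 1 on the low side, beside 10.8% and 10.5% of all genes, and their median log2 fold change was 0.53 (0.18 without saline replicate 3 and 0.86 without saline replicate 1). At an unadjusted p under 0.05 there were 10 on the high and 2 on the low side, beside 8.27% and 12.4% of all genes. Cpt1a (chromosome 19, 3323301 to 3385732), which loads fatty acids onto carnitine for entry into mitochondria, was at 669, 635 and 603 CPM against 518, 461 and 288 CPM, and its log2 fold change was 0.59 (SE 0.23). The O304 libraries of Cpt1a were above all others, and its adjusted p was 0.209 (edgeR's quasi-likelihood test). Cd36, a fatty acid uptake receptor, was at 476, 469 and 601 CPM against 387, 259 and 46.3 CPM.

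Not all PPARα targets leaned the same way. Cyp4a14, an ω-hydroxylase that PPARα induces, was at 577, 345 and 127 CPM with saline, 161, 99.47 and 38.6 CPM with O304 and 30.2 to 62.1 CPM at 18 mo, and its groups at 21 months overlapped. The related Cyp4a12a, which is androgen-dependent, was at 179, 256 and 312 CPM with O304 and 25.4, 74.96 and 9.39 CPM with saline, 6.81-fold higher in the fit. Ucp2, an inner membrane carrier, was low in the treated libraries at 115, 109 and 97.54 CPM against 128, 201 and 224 CPM.

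All 35 genes of mitochondrial fatty acid oxidation had a log2 fold change above 0, from 0.10 to 1.85 with a median of 0.56 (0.32 without saline replicate 3 and 0.96 without saline replicate 1), while 11 did not overlap on the high side and none on the low side. Acsm2, a medium-chain acyl-CoA synthetase of the tubule, was at 4128, 5139 and 6529 CPM with O304 and 2851, 1223 and 362 CPM with saline. Of 58 peroxisomal genes, 57 were above 0 with a median of 0.48 (0.26 without saline replicate 3), and 21 did not overlap on the high side and none on the low side. Phyh, which starts the breakdown of phytanic acid, was at 593, 601 and 753 CPM against 489, 261 and 149 CPM. Agps, an enzyme of plasmalogen synthesis, was at 355, 391 and 479.9 CPM against 289.7, 158 and 70.2 CPM, and Nudt7, which cleaves coenzyme A, at 25.3, 24.2 and 25.7 CPM against 18.8, 16.3 and 13.7 CPM. In each of Acsm2, Phyh and Agps saline replicate 1 held the most and replicate 3 the least of the saline libraries. Proximal tubule markers went with these genes, with a mean log2 level relative to 18 mo of 0.10, −1.12 and −3.26 in saline replicates 1 to 3, and their part in the result was not tested. Without saline replicate 1, 24 of the mitochondrial and 28 of the peroxisomal genes passed on the high side, and none on the low side, beside 10.6% and 12.6% of all genes in that fit.

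The respiratory chain differed by less. All 77 nuclear genes of oxidative phosphorylation had log2 fold changes above 0, between 0.055 and 0.75, with a median of 0.36 (0.22 without saline replicate 3 and 0.56 without saline replicate 1). Yet 9 of them did not overlap saline on the high side, near the 10.8% of all genes, and 0 lay above the 18 mo libraries as well. None lay on the low side without overlap. At an unadjusted p under 0.05, 15 were higher (19.5%) and 0 lower, beside 8.27% and 12.4% of all genes. Without saline replicate 1, 44 passed on the high side, beside 10.6% of all genes in that fit. Ndufb3, a subunit of complex I, was at 80.8, 76.6 and 107 CPM with O304, 73.45, 45.4 and 38.8 CPM with saline and 109.9, 99.8 and 93.45 CPM at 18 mo. Relative to the mean of the 18 mo libraries, the list's mean log2 level was −0.25, −0.70 and −0.92 in the saline libraries and −0.23, −0.36 and −0.12 in the O304 libraries, so that saline replicate 1 lay within the O304 range. Of 33 genes of the TCA cycle and pyruvate entry, 6 did not overlap on the high side and 2 on the low side, with a median of 0.44 (0.23 without saline replicate 3 and 0.79 without saline replicate 1). Suclg2, a subunit of succinyl-CoA synthetase, was at 473, 468 and 524 CPM against 407, 277 and 163 CPM. Ogdhl, an enzyme like the 2-oxoglutarate dehydrogenase of the cycle, lay below both other groups at 4.71, 4.17 and 3.12 CPM against 8.03, 11.48 and 9.39 CPM. Amino acid and ketone body catabolism had a median of 0.67 (0.33 without saline replicate 3 and 1.27 without saline replicate 1) over 62 genes. Without overlap 9 were higher and 2 lower (14.5% and 3.23%, beside 10.8% and 10.5% of all genes). The 2 lower were Arg2, the mitochondrial arginase, at 9.36, 2.44 and 0.764 CPM against 10.9, 24.9 and 39.3 CPM, and Oat, ornithine aminotransferase. Oat was at 139, 150.4 and 124 CPM against 172, 186 and 219.7 CPM.

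Enzymes and transporters that clear drugs and waste differed in both directions. Among 60 conjugating enzymes, 16 were higher and 8 lower without overlap, beside 10.8% and 10.5% of all genes. Their median was 0.39 (0.18 without saline replicate 3 and 0.83 without saline replicate 1). Besides Ugt1a2, the low members included Ephx1, the microsomal epoxide hydrolase, at 35.9, 32.8 and 33.9 CPM with O304 and 56.46, 113 and 102 CPM with saline. Mgst1, a membrane-bound glutathione transferase, was at 108, 84.3 and 85.50 CPM against 138, 169 and 209 CPM. Gsta4, the glutathione transferase that removes the toxic aldehydes of lipid peroxidation, was at 26.9, 17.2 and 20.8 CPM against 35.7, 54.8 and 132 CPM. Ephx2, the soluble epoxide hydrolase found in peroxisomes, leaned the other way at 487, 524 and 615 CPM against 359, 262 and 87.7 CPM. With O304, Mgst1 stayed above its 18 mo level of 50.7 to 69.01 CPM, whereas Ephx1 and Gsta4 overlapped theirs, 35.4 to 56.4 CPM and 19.4 to 20.1 CPM.

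Of 44 cytochrome P450 genes, 6 were higher and 2 lower without overlap (13.6% and 4.55%, beside 10.8% and 10.5% of all genes). Their median was 0.32 (0.10 without saline replicate 3 and 1.06 without saline replicate 1). Of 44 organic ion and carboxylate transporters, 14 did not overlap on the high side and 1 on the low side, and the median was 0.72 (0.38 without saline replicate 3 and 1.25 without saline replicate 1). Slco1a1, an organic anion transporter of the brush border, ranged from 239 to 786 CPM with O304 against 1.60 to 35.4 CPM with saline and 152 to 345 CPM at 18 mo. The log2 fold change of Slco1a1, 4.42 (SE 0.98), was the highest of the list. Slc13a2, which takes up citrate and succinate, was above all other libraries at 58.6, 47.9 and 42.9 CPM against 38.4, 23.3 and 12.7 CPM with saline. Slco3a1, another organic anion transporter, was at 257, 265 and 288 CPM against 185, 137 and 88.3 CPM. The low member was Slco2a1, the prostaglandin transporter, at 27.6, 26.04 and 20.2 CPM against 35.8, 42.51 and 81.3 CPM. Abcc4, an efflux pump for urate and cyclic nucleotides, was high in all 3 saline libraries at 228, 148 and 119.7 CPM, and its O304 libraries, at 125, 87.6 and 50.2 CPM, overlapped them and reached down to the 18 mo range of 35.4 to 55.8 CPM.

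The RNA of AMPK itself did not separate the groups. Prkaa1, a catalytic α subunit, was at 38.7, 37.3 and 36.6 CPM with O304 and 35.45, 43.1 and 38.2 CPM with saline. Prkaa2, the other catalytic subunit, was at 236, 280.3 and 252 CPM and 251, 151 and 79.52 CPM, lowest in saline replicate 3. The log2 fold changes were −0.052 (SE 0.11) for Prkaa1 and 0.67 (SE 0.35) for Prkaa2, and the groups overlapped in both. Of 15 genes for subunits and upstream kinases, 1 did not overlap, which was Stradb, a pseudokinase partner of the upstream kinase LKB1, at 53.3, 59.3 and 57.4 CPM against 49.03, 38.4 and 18.3 CPM. Camkk2, the calcium-dependent upstream kinase, was at 15.8, 16.3 and 16.7 CPM against 14.6, 27.7 and 36.51 CPM, with saline replicate 1 under the O304 range. The median of the list was −0.052 (−0.11 without saline replicate 1 and 0.035 without saline replicate 2).

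Regulators downstream of AMPK had a median of 0.16 (0.093 without saline replicate 3 and 0.28 without saline replicate 1), with 7 of 31 genes on the high side without overlap and none on the low side. Gabpa, a factor that drives nuclear genes of the respiratory chain, was above all 6 other libraries at 58.3, 69.4 and 60.48 CPM against 49.03, 46.9 and 37.6 CPM with saline. So was Twnk, the helicase of mitochondrial DNA, at 39.1, 37.1 and 31.7 CPM against 24.6, 26.1 and 14.02 CPM. Mlycd, which removes the malonyl-CoA that blocks Cpt1a, was at 105, 89.99 and 102 CPM against 74.45, 44.6 and 34.7 CPM. Esrra, the estrogen-related receptor that works with PGC-1α, was at 144, 136 and 139 CPM against 123, 91.50 and 70.04 CPM, under the 214 to 234 CPM of the 18 mo libraries. Ppargc1a, which encodes PGC-1α, was at 63.4, 56.7 and 56.7 CPM with O304 and 79.4, 60.9 and 37.1 CPM with saline, a log2 fold change of −0.0036 (SE 0.24). Its sign was not the same in all fits.

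In the core machinery of autophagy, 12 of 56 genes did not overlap on the high side and 1 on the low side. Over all genes these shares were 10.8% and 10.5%. The differences were small, with a median of 0.13 (0.21 without saline replicate 1). Wipi1, which binds the lipid of the forming autophagosome, was at 41.1, 39.04 and 37.2 CPM with O304 and 31.9, 25.1 and 22.95 CPM with saline. Atg13, a subunit of the ULK1 complex that AMPK and mTOR regulate, was above all other libraries at 65.1, 58.8 and 69.52 CPM against 55.1, 43.9 and 34.2 CPM, with a log2 fold change of 0.54 (SE 0.16). Gabarapl1, an LC3 relative on the autophagosome membrane that was chosen after its values were seen, was at 1061, 797 and 954 CPM against 747, 391 and 282 CPM. Map1lc3a, another of the LC3 family, was at 93.7, 93.6 and 116 CPM against 79.7, 64.6 and 73.48 CPM, under its 18 mo level of 123 to 128 CPM. Map1lc3b, the gene of LC3B, was at 215, 198 and 221 CPM with O304 and 210.4, 200.3 and 216 CPM with saline. Sqstm1, the autophagy receptor P62, was at 689, 626 and 765 CPM against 634, 575 and 406 CPM. Mtor, the kinase that holds autophagy back, was at 245, 222 and 211 CPM against 233, 157 and 70.50 CPM. In these 3 genes the groups overlapped.

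The study assayed 18 genes or their products in mouse kidney or in a human tubule cell line, of which 17 had enough counts here. For Tfam and H2afx the assays, of TFAM and γH2AX protein, were in the cell line only. Besides Cpt1a, 260.0, 226 and 197 CPM of Cpt2, the inner membrane partner of Cpt1a, lay above the 191, 165 and 63.7 CPM of the saline libraries. Ctnnb1, which encodes β-catenin, was at 337, 367 and 361 CPM against 413, 401 and 369 CPM, without overlap on the low side and with a log2 fold change of −0.15 (SE 0.14). Among the genes whose groups overlapped, Fn1, fibronectin, was at 13.4, 21.3 and 20.9 CPM with O304 and 12.9, 59.4 and 237 CPM with saline, with saline replicate 1 under all 3 treated libraries. Acta2, the actin of smooth muscle and myofibroblasts, was at 9.60, 22.3 and 45.3 CPM against 22.7, 23.4 and 124 CPM. The log2 fold changes of the others were 0.46 (SE 0.42) for Ppara, −0.27 (SE 0.20) for Plin2, the droplet protein also called ADRP, 0.31 (SE 0.18) for Tfam, −0.28 (SE 0.20) for H2afx and −0.017 (SE 0.12) for Tomm20. Adjusted p-values of the 17 genes ran from 0.184 for Fn1 to 0.994 for Ppargc1a (edgeR's quasi-likelihood test). The list had a median of 0.017 (0.0050 without 18 mo replicate 3 and 0.26 without saline replicate 1). It was chosen from the study, so it is not independent evidence of a direction.

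Of 34 genes of lipid and cholesterol synthesis, 5 were lower and 3 higher without overlap, beside 10.5% and 10.8% of all genes, and their median was −0.044 (−0.25 without O304 replicate 1 and 0.14 without saline replicate 1). Elovl6, which lengthens palmitate, was at 17.2, 15.2 and 12.3 CPM with O304 and 24.7, 35.3 and 27.03 CPM with saline. Mvk, mevalonate kinase of cholesterol synthesis, lay below both other groups at 11.3, 8.88 and 10.8 CPM against 18.2, 13.4 and 18.8 CPM and 18.2 to 22.98 CPM at 18 mo. Srebf1, the master regulator of lipogenic genes, was at 43.3, 30.6 and 33.1 CPM against 73.7, 42.8 and 69.9 CPM with overlap. In these genes saline replicate 1 was not closer to the O304 libraries than the other saline libraries were, except for Elovl6, where it was the lowest of the saline group.

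Of 29 genes of glycolysis and fructose metabolism, 1 was higher and 5 lower without overlap. Among the lower were Fbp2, the muscle form of fructose bisphosphatase, at 19.4, 16.6 and 12.8 CPM against 30.97, 33.2 and 26.8 CPM, and Pfkp, the platelet-type phosphofructokinase. Pfkp was at 46.46, 33.97 and 26.3 CPM against 58.6, 68.2 and 123 CPM. Antioxidant enzymes had a median of 0.37 (0.22 without saline replicate 3 and 0.63 without saline replicate 1) over 30 genes, with 8 on the high and 1 on the low side. Sod1, the cytosolic superoxide dismutase, was at 469, 469 and 588 CPM against 445, 255 and 177 CPM. The low gene was Nfe2l2, the regulator NRF2, at 96.53, 101 and 109 CPM against 115, 164 and 167 CPM.

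Markers of the distal convoluted tubule, the segment that takes up NaCl and magnesium under hormonal control, were higher with O304. Of 6 marker genes 5 did not overlap saline on the high side, and 3 lay above the 18 mo libraries as well. Slc12a3, the thiazide-sensitive NaCl cotransporter that defines the segment, was at 815, 772 and 694 CPM with O304 and 565, 340.0 and 244 CPM with saline, inside the 624 to 880.2 CPM of the 18 mo libraries, with a log2 fold change of 0.99 (SE 0.30). Wnk1, a kinase that controls this cotransporter, was above all other libraries at 461, 541 and 473 CPM against 394, 241 and 203 CPM. Klhl3, the adaptor of the ubiquitin ligase that removes WNK kinases, was so too at 68.2, 67.05 and 63.2 CPM against 43.4, 22.4 and 11.96 CPM. Calb1, the calcium buffer calbindin of the same cells, was at 565, 417 and 421 CPM against 239, 186 and 293 CPM. The gene whose groups overlapped was Pvalb, parvalbumin, at 51.6, 28.96 and 21.3 CPM against 24.48, 0.909 and 0 CPM. Relative to 18 mo, the mean log2 level of the list was 0.77, 0.54 and 0.37 with O304 and −0.086, −1.40 and −1.94 with saline.

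Proximal tubule markers had a median of 0.77 (0.32 without saline replicate 3 and 1.61 without saline replicate 1), with 6 of 15 higher without overlap. Slc34a1, the sodium-phosphate cotransporter, was at 4114, 4939.8 and 5704 CPM with O304 and 3510.4, 1815 and 471 CPM with saline. Slc22a6, the organic anion transporter OAT1, was at 1125, 1359 and 1654 CPM against 890.5, 453 and 112 CPM. Slc7a13, an acidic amino acid transporter of its last segment that was chosen after its values were seen, ran from 1188 to 1293 CPM with O304 and was at 1020.0, 246 and 5.08 CPM with saline. The mean log2 level of this list relative to 18 mo was 0.10, −1.12 and −3.26 in the saline libraries and 0.053, 0.053 and −0.20 with O304, so that saline replicate 1 held as much as the treated libraries. The thick ascending limb leaned low, with a median of −0.98 over 6 markers, of which 4 were below 0 and 2 above, the highest at 0.28. Without overlap 2 of the 6 were lower. They were Cldn16, a tight junction protein needed to recover magnesium, at 8.32, 6.08 and 8.40 CPM against 12.2, 18.1 and 19.1 CPM and 9.37 to 13.2 CPM at 18 mo, and Ptger3, a prostaglandin receptor. Ptger3 was at 44.3, 26.8 and 22.7 CPM against 108, 63.3 and 47.55 CPM. Umod, uromodulin, the classic marker of that segment, was at 2586, 1752 and 1404 CPM against 4479, 4360.5 and 2008 CPM, with saline replicate 3 in the O304 range and an 18 mo group that itself ran from 1886 to 4767 CPM. In the collecting duct Aqp2, the water channel set by vasopressin, was at 120.4, 75.7 and 78.2 CPM against 193, 328 and 151 CPM, and the list had a median of −0.050 (−0.30 without O304 replicate 1 and 0.081 without saline replicate 2). Of the 10 genes of that list, 5 had log2 fold changes above 0 and 5 below, between −1.29 and 1.08. How much of each segment the piece of tissue held was not tested.

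Kl, the anti-ageing protein klotho of the distal tubule, was at 992, 896 and 861 CPM with O304 and 633, 291 and 105 CPM with saline, beside 636 to 971 CPM at 18 mo. Vdr, the vitamin D receptor, was above both other groups at 360.1, 339 and 358 CPM against 293, 189.8 and 90.2 CPM. These genes belong to a list of the renin-angiotensin system, klotho, vitamin D and phosphate, in which 5 of 22 did not overlap on the high side and none on the low side.

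**Figure D4:**
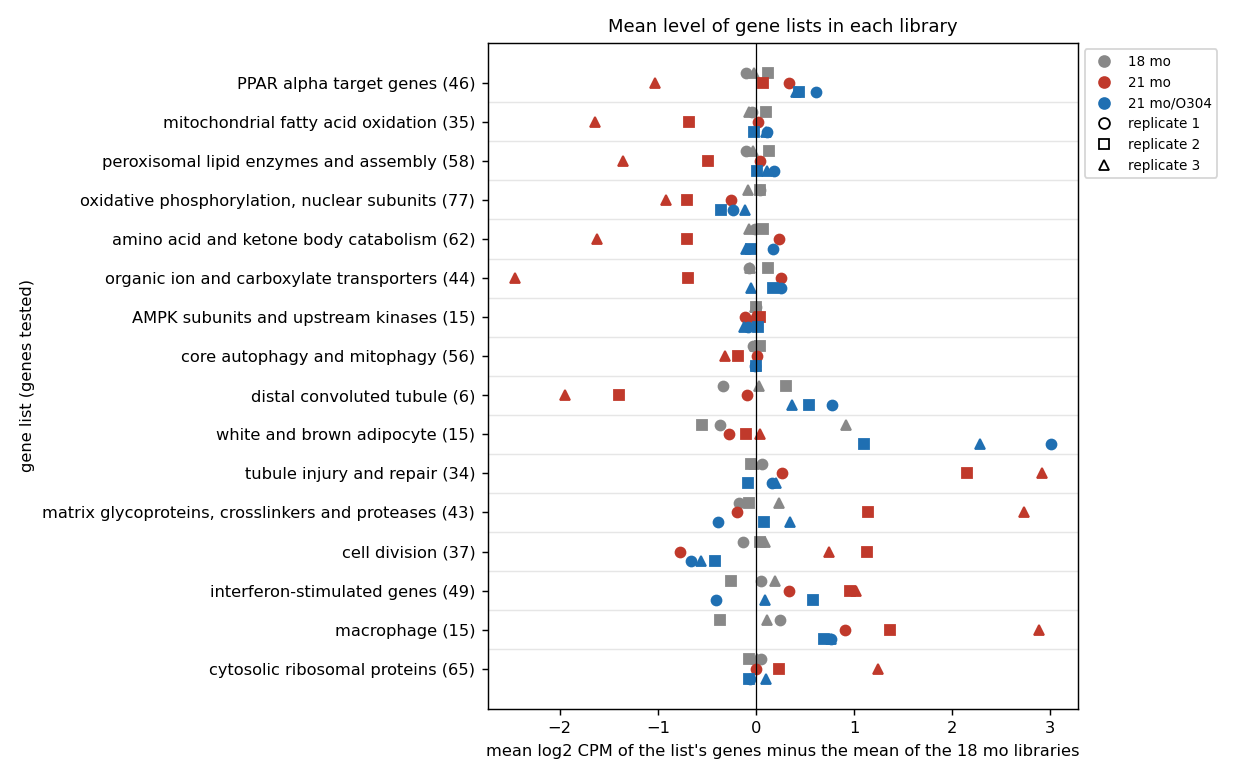
Mean log2 CPM of the tested genes of 16 gene lists (vertical axis, number of genes in brackets) in each library, relative to the mean of the 18 mo libraries (horizontal axis), coloured by group and shaped by replicate number. Replicates 2 and 3 of the 21 mo group lie apart in the injury and matrix lists, as with 2.15 and 2.91 for tubule injury, while replicate 1 lies at 0.27. They also lie apart in the metabolic lists except the PPARα targets, where replicate 2, at 0.072, is inside the 18 mo range and replicate 3 is at −1.03. The O304 libraries stand above all others in the adipocyte, distal convoluted tubule and PPARα target lists.

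Genes of fat cells had the highest median log2 fold change of all lists. Of 15 adipocyte genes tested, 8 did not overlap saline on the high side and none on the low side, 6 lay above the 18 mo libraries as well, and the median log2 fold change was 1.88 (3.00 without saline replicate 1). Plin1, the coat protein of the fat droplet in adipocytes, was at 12.6, 1.13 and 5.35 CPM with O304. Every saline library had 3 counts of Plin1 or fewer, so that its mean level with O304 was at least 37.6-fold higher, taking 3 counts in each saline library as the floor. Adipoq, the adipocyte hormone adiponectin, was at 21.6, 1.97 and 15.1 CPM with O304, 0.0669, 0 and 0.504 CPM with saline and 0, 0 and 1.41 CPM at 18 mo. Cfd, adipsin, was at 78.4, 4.23 and 76.7 CPM against 0.401, 1.08 and 3.62 CPM. Cidec, which fuses fat droplets and is counted among the PPAR targets above, was at 20.47, 2.21 and 13.2 CPM against 0.937, 1.36 and 0.916 CPM. Adipoq and Cfd were chosen after their values were seen.

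O304 replicate 2 was the lowest of its group in each of Plin1, Adipoq, Cfd and Cidec, and 18 mo replicate 3 held 1.02 CPM of Plin1 and 1.41 CPM of Adipoq, close to it. Car3, one of the genes nearest to the threshold, followed the same order at 110.5, 30.99 and 76.6 CPM with O304, 3.48, 8.70 and 2.06 CPM with saline and 13.6, 18.2 and 38.2 CPM at 18 mo. Lipe and Lpl are used by kidney cells too. Lpl, lipoprotein lipase, was at 1019.6, 1099.6 and 1206 CPM with O304, 547, 176 and 182 CPM with saline and 825, 1387 and 709 CPM at 18 mo, and its replicate 2 was not low. The defining genes Lep and Ucp1 were too low to be tested. Summed over the tested genes of the list, adipocyte genes came to 1667, 1379 and 1688 CPM in replicates 1 to 3 with O304 and 829.6, 361 and 349 CPM with saline. The 18 mo sums were 1089, 1604 and 977 CPM, so the O304 and 18 mo ranges overlapped. Most of each O304 sum was Lpl, so the sums say little about fat cells. Whether the pieces of kidney differed in attached fat was not tested.

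**Figure D5:**
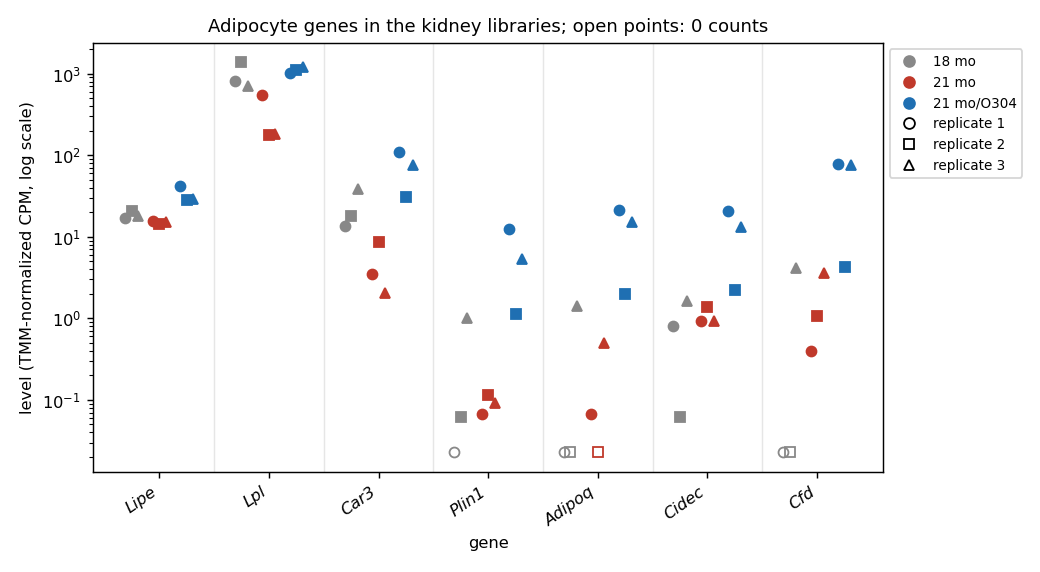
TMM-normalized CPM (vertical axis, log scale) of 7 adipocyte genes (horizontal axis) by library, coloured by group and shaped by replicate number, with libraries of 0 counts drawn as open points at the bottom. O304 replicates 1 and 3 are highest in Plin1, Adipoq, Cidec and Cfd, replicate 2 is nearer to the other groups, as at 1.13 CPM of Plin1, and all 3 are similar in Lpl at 1019.6 to 1206 CPM.

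Genes of tubule injury were low with O304 and high in saline replicates 2 and 3. Of 34 genes, 29 had an unadjusted p under 0.05 on the low side, beside 12.4% of all genes, and none on the high side. Their median log2 fold change was −1.90 (−1.21 without saline replicate 3), but 11 did not overlap, beside 10.5% of all genes. Relative to 18 mo, the mean log2 level was 0.27, 2.15 and 2.91 in saline replicates 1 to 3 and 0.16, −0.084 and 0.21 with O304. Spp1, osteopontin, was at 1235, 11162 and 12555 CPM with saline and 1002, 649 and 676 CPM with O304, and thus high in 2 libraries of the saline group. Lcn2, the injury marker NGAL, was at 17.53, 323 and 1258 CPM against 11.8, 3.22 and 9.996 CPM. Havcr1, the proximal tubule injury marker KIM-1, was at 11.6, 475 and 61.2 CPM with saline, where replicate 1 lay inside the range of the treated libraries, 4.83 to 12.04 CPM. Krt19, a keratin of dedifferentiated tubule cells, followed at 1.61, 26.8 and 198 CPM against 0.582, 1.13 and 1.91 CPM. Lcn2, Havcr1 and Krt19 were chosen after their values were seen. Sox9, a transcription factor of tubule repair, had 3.01, 26.9 and 48.7 CPM with saline and 3.14, 1.73 and 1.59 CPM with O304. Cdkn1a, the cell cycle inhibitor p21 and a marker of senescence, did not overlap at 23.9, 44.3 and 79.8 CPM with saline and 15.7, 12.2 and 14.96 CPM with O304, a log2 fold change of −1.79 (SE 0.39). Without saline replicate 1, 30 of the 34 genes passed on the low side, beside 12.6% of all genes, with the saline group then made of the 2 libraries in which these genes were high.

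Matrix genes had the same shape, with a median of −1.51 (−0.37 without saline replicate 3) over 43 genes. On the low side 22 had an unadjusted p under 0.05 and 7 did not overlap, beside 12.4% and 10.5% of all genes. Mmp7, a matrix protease of injured tubules, was at 0.803, 8.75 and 119.9 CPM with saline and 0.756, 0.179 and 0 CPM with O304. Mmp14, the membrane-bound collagenase, was chosen after its values were seen and lay below both other groups at 12.3, 13.9 and 13.8 CPM against 15.6, 44.4 and 161 CPM. So did the microfibril protein Mfap4 at 0.698, 1.13 and 1.15 CPM against 1.61, 6.25 and 4.26 CPM. Of 27 collagens, 14 were lower and 2 higher at an unadjusted p under 0.05, beside 12.4% and 8.27% of all genes. Their median was −1.09 (−0.44 without saline replicate 3). Without overlap 2 were lower and 2 higher (7.41% each, beside 10.5% and 10.8% of all genes). Col3a1, a fibrillar collagen, was at 29.7, 265 and 567 CPM with saline and 22.4, 33.7 and 39.7 CPM with O304. Col1a1, the main collagen of scars, was at 10.4, 63.7 and 168 CPM against 9.94, 16.7 and 12.6 CPM, and in both genes saline replicate 1 was at the O304 level. The 2 on the high side were Col6a6 at 3.84, 1.61 and 5.92 CPM against 0.669, 0.284 and 0.687 CPM and Col27a1 at 24.6, 61.6 and 36.8 CPM against 16.46, 14.9 and 8.38 CPM.

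Cell division genes were low in the O304 libraries and in saline replicate 1. Their mean log2 level relative to 18 mo was −0.66, −0.42 and −0.56 with O304 and −0.77, 1.14 and 0.75 with saline. Of 37 genes, 9 were lower and none higher without overlap, beside 10.5% and 10.8% of all genes. The median log2 fold change of the list was −1.41 (−0.76 without saline replicate 2). Mki67, a marker of cycling cells chosen after its values were seen, was at 6.75, 7.57 and 4.33 CPM against 3.61, 31.2 and 16.6 CPM. Mcm2, a helicase subunit like Mcm6, was at 12.8, 11.6 and 12.03 CPM against 14.6, 21.4 and 23.04 CPM, and Pcna, the replication clamp, at 44.02, 43.51 and 43.99 CPM against 51.7, 56.9 and 63.49 CPM. Of 25 immediate early genes, which cells switch on within minutes of a stimulus, 5 were lower without overlap and none higher. Klf6 was at 34.48, 51.02 and 41.8 CPM against 59.1, 190.3 and 186 CPM, and Myc, a driver of growth, at 6.86, 6.62 and 7.70 CPM against 10.03, 25.46 and 23.4 CPM. The senescence list, of which Cdkn2a was too low to be tested, had a median of −0.45 (−0.25 without saline replicate 3) over 25 genes. At an unadjusted p under 0.05, 10 were lower (40%) and 2 higher (8%), beside 12.4% and 8.27% of all genes. Without overlap 2 were higher and 2 lower (8% each, beside 10.8% and 10.5% of all genes). The highest member of the list, Igfbp3, a binding protein of insulin-like growth factors, was at 215, 481 and 508 CPM against 167, 136 and 87.6 CPM.

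Inflammatory genes were mostly lower with O304, and in those named here saline replicate 1 lay above the treated libraries. The whole lists differed from this. Relative to 18 mo, the mean log2 level of the cytokine list was 0.58 in saline replicate 1 and 0.27, 0.61 and 0.39 with O304. For interferon-stimulated genes it was 0.33 against −0.41, 0.58 and 0.095, again inside the O304 range. For chemokines it was 0.873 against 0.375, 0.773 and 0.870. Of 49 genes for cytokines, the TNF family and innate sensing, 14 did not overlap on the low side and 1 on the high side. Over all genes the shares were 10.5% and 10.8%. The median of the list was −0.92 (−0.38 without saline replicate 3). Il1rn, the interleukin-1 receptor antagonist, was at 0.640, 0.358 and 0.573 CPM with O304 and 1.14, 7.62 and 12.46 CPM with saline. Tlr7, a sensor of single-stranded RNA, was at 2.44, 3.16 and 3.44 CPM against 6.35, 9.04 and 25.52 CPM. Relb, a subunit of NF-κB, was at 10.4, 9.12 and 9.74 CPM against 11.7, 28.1 and 27.1 CPM. Of 49 interferon-stimulated genes, 11 did not overlap on the low side and none on the high side. On the low side 24 had an unadjusted p under 0.05, beside 12.4% of all genes. Ifi27, one of the interferon-induced genes, was at 31.7, 45.3 and 37.3 CPM against 58.1, 80.1 and 104 CPM. Irf9, a subunit of the factor that interferon activates, was at 19.54, 25.98 and 23.8 CPM against 28.50, 43.2 and 47.1 CPM. Chemokines and their receptors had a median of −0.88 (−0.056 without saline replicate 3). Of 35 genes, 5 were lower and 3 higher without overlap (14.3% and 8.57%, beside 10.5% and 10.8% of all genes). Cxcr2, the neutrophil chemokine receptor, was high in all 3 saline libraries at 2.81, 1.19 and 2.20 CPM against 0.233, 0.656 and 0.573 CPM.

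Complement genes included the central component C3, at 73.8, 809 and 1217 CPM with saline and 60.01, 49.2 and 75.6 CPM with O304, and in it saline replicate 1 lay inside the O304 range. The inhibitor Cfi was at 14.8, 37.7 and 69.4 CPM against 6.69, 8.70 and 6.37 CPM without overlap. Over 42 complement and coagulation genes, 10 were lower and 4 higher without overlap, beside 10.5% and 10.8% of all genes. C4a was among the higher ones, at 1.86, 5.36 and 2.29 CPM against 0.468, 0.341 and 0 CPM, and it has a near-identical copy with which reads could be shared. Antigen presentation had a median of −0.44 (−0.70 without O304 replicate 2). Of its 27 genes, 4 were lower and 2 higher without overlap, which is 14.8% and 7.41%. In the phagocyte oxidase list 3 of 11 were lower without overlap. Ncf1, a cytosolic subunit of the oxidase, was at 7.73, 8.70 and 6.43 CPM against 8.76, 13.53 and 41.9 CPM.

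Markers of macrophages, neutrophils, fibroblasts and smooth muscle had medians below 0, like these lists. Those of endothelial, T and NK, B and plasma, and dendritic cells had medians above 0. Of 15 macrophage markers, 8 did not overlap on the low side and 1 on the high side, and their median was −1.38 (−0.52 without saline replicate 3). Adgre1, the marker F4/80, was at 19.2, 25.03 and 20.9 CPM with O304, 36.7, 41.03 and 57.9 CPM with saline and 15.2, 7.70 and 14.9 CPM at 18 mo, so that it was high in all 3 saline libraries and its treated libraries lay between the other groups. The marker on the high side was Mertk, a receptor for clearing dead cells, at 57.4, 74.02 and 51.8 CPM against 42.6, 39.8 and 43.1 CPM. The neutrophil protein S100a8 was at 3.90, 3.52 and 6.43 CPM against 23.48, 6.65 and 21.3 CPM, highest in saline replicate 1. Fibroblast markers had a median of −1.08 (−1.71 without O304 replicate 3 and −0.042 without saline replicate 3) with 1 of 14 without overlap. The median was −0.28 (−0.60 without saline replicate 2 and 0.46 without saline replicate 3) for podocyte markers, with none without overlap. It was −0.60 (0.17 without saline replicate 3) for smooth muscle markers, with 1 of 8 lower without overlap. Endothelial markers had a median of 0.52 (0.29 without O304 replicate 2) with 1 higher and 1 lower of 12. T and NK cell markers had a median of 0.046 (−0.58 without O304 replicate 2 and 0.59 without saline replicate 1), with 0 higher and 0 lower of 15 without overlap. Urothelial genes were highest in saline replicates 2 and 3, and 2 of 3 did not overlap on the low side. Upk3a, a plaque protein of the urinary epithelium, was at 0.803, 12.05 and 51.6 CPM with saline, 0.116, 0.298 and 0.191 CPM with O304 and at most 0.453 CPM at 18 mo. The part of these cell types in the gene lists above was not tested.

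Cytosolic ribosomal protein genes were all below 0, between −1.31 and −0.080 on the log2 scale. Their median was −0.63 (−0.12 without saline replicate 3) over 65 genes. Saline replicate 3 set this, with list means of −0.0030, 0.23 and 1.24 relative to 18 mo in the saline libraries and −0.061, −0.069 and 0.11 with O304. Rps12 was at 229, 226 and 244 CPM with O304 and 294, 340.3 and 1096 CPM with saline. In the Wnt pathway, 4 of 41 genes were higher and 9 lower without overlap (9.76% and 22%, beside 10.8% and 10.5% of all genes). The median was −0.16 (−0.38 without saline replicate 1 and −0.093 without saline replicate 3). The receptor Fzd5 lay above both other groups at 26.4, 23.7 and 33.7 CPM against 20.4, 14.4 and 15.6 CPM, as did the secreted Wnt inhibitor Sfrp1 against saline at 155, 167 and 161 CPM and 115, 98.9 and 101 CPM. The scaffold Apc of the β-catenin destruction complex lay just below both at 51.8, 48.8 and 44.4 CPM against 68.50, 70.6 and 58.9 CPM, beside 51.8 to 57.8 CPM at 18 mo.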

How the data were processed

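RNA of mouse kidney was sequenced in 9 libraries, 3 from each group. Per the submitters' processing notes and the study's methods, the authors aligned reads with HISAT2 2.0.5 to mm10 (GRCm38) and counted them per gene with featureCounts 1.5.0-p3. How strand and reads with several matches were treated is not given in the sources used here, so antisense and near-identical genes may share reads. The deposited table holds raw counts per gene and FPKM, which the authors scaled by gene length and depth. It also holds the authors' comparisons (normalized group means, log2 fold changes and p-values from DESeq2 1.20.0), which were not used.

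Counts were tested with edgeR 4.0.16 in R 4.3.3: filterByExpr (minimum count 10), TMM factors, a quasi-likelihood fit of 3 group means to all 9 libraries, the contrast of 21 mo/O304 with 21 mo, two-sided, and Benjamini-Hochberg adjustment over 15902 genes with a threshold of 0.05. CPM were TMM-scaled, and a library at 3 counts or fewer was taken as at the floor. The procedure was tested on simulated data with known changes. The simulation gave all genes and groups the same spread, unlike the saline group here. It therefore does not show how the tests behave when 1 group is more spread than the others. Alternatives used DESeq2 1.42.0 and limma 3.58.1, the latter on log2(FPKM + 1) where a gene's mean reached 0.5 FPKM. Gene lists, and the members described, were chosen with earlier results of these data known. Genes were named by rule: the 12 with the smallest p in each direction among protein-coding genes without overlap between groups and with at least 1 CPM in the higher group (no gene passed the adjusted threshold), up to 4 with the smallest p in each list, and all tested genes that the study assayed. Some genes that meet the rule are not reported here. Genes said to be chosen after their values were seen, and also Cd36, Ephx2, Abcc4 and Slc7a13, fall outside the rule. Gene positions are those of the deposited table. Depth was 15636378 to 18396725 counts a library, so that 1 count was 0.0458 to 0.0669 CPM.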

Additional observations from a re-analysis of the deposited data

How the results depend on the processing

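The count of genes past an adjusted p of 0.05 was 0 in each direction in edgeR and stayed at 0 with the 6 libraries alone, RLE or upper-quartile scaling, at least 10 counts in every library, limma with 1 weight for each group, both FPKM scales, the replicate block and a threshold of 0.01. It was 282 higher and 665 lower with DESeq2 on 9 libraries, 113 and 356 with DESeq2 on 6, 9 and 8 without a filter on low counts, and 3372 and 3156 with limma voom and a weight for each library. With each library left out in turn it ran from 0 to 1741 higher and from 0 to 2067 lower, with the highest counts without saline replicate 1. The cause of the gap between DESeq2 and edgeR was not tested. At an unadjusted p under 0.05, counts that were added after the data were seen, 1315 higher and 1974 lower became 770 and 1385 in edgeR on 6 libraries, 1563 and 1292 on log2(FPKM + 1), and 691 to 2972 higher and 1121 to 3406 lower with 1 library left out.

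Same-numbered libraries of the groups at 21 months did not deviate together, with correlations of 0.094, −0.13 and 0.168, so the replicate number was not taken to pair them. As a block it gave 0 calls and 1349 higher and 1749 lower at an unadjusted p under 0.05, and 2 of 3 saline and 1 of 3 O304 libraries correlated best with their own number.

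List medians moved with the library left out, and where one printed elsewhere moved by over 1.5 times its values stand beside it. They ranged, for example, from 0.099 to 1.06 for cytochrome P450 enzymes, −0.11 to 0.035 for AMPK subunits, −1.97 to −0.37 for matrix genes, −1.54 to −0.49 for immediate early genes, −1.11 to −0.056 for chemokines, −1.48 to −0.37 for complement, −0.86 to −0.12 for ribosomal proteins and 0.0050 to 0.26 for the genes assayed by the study. They ranged from 0.18 to 0.86 for PPARα targets, 0.32 to 0.96 for mitochondrial fatty acid oxidation, 0.38 to 1.25 for transporters, −1.49 to −0.44 for collagens, −1.21 to −0.38 for cytokines and −1.71 to −0.042 for fibroblast markers. The value nearest to 0 came without saline replicate 3, except for the assayed genes (18 mo replicate 3) and for AMPK subunits, whose median was above 0 without saline replicate 2. The chemokine median was −0.32 with at least 10 counts in every library and 0.039 with a weight for each library in limma, which gave −0.60 for complement. On log2(FPKM + 1) the cell division median was −0.54, beside −1.41 in the main fit and −0.76 without saline replicate 2. The adipocyte median ran from 0.84 with at least 10 counts in every library to 3.48 with DESeq2.

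Of the named genes, 7 changed sign. Ppargc1a became 0.00043 with DESeq2 on 6 libraries, 0.061 with 1 limma weight for each group, 0.053 and 0.065 on log2(FPKM + 1) and log2(FPKM + 0.1), 0.042 with the block, and −0.24 to 0.26 with a library left out. Map1lc3b was −0.0055 with upper-quartile scaling and −0.023 to 0.050 with a library left out, and Tomm20 0.068 with limma library weights and −0.081 to 0.027. Prkaa1 ranged from −0.12 to 0.035 and Acta2 from −1.84 to 0.16, where the high value was without saline replicate 3. Slc7a12 ranged from −2.35 to 0.25 and Prlr from −1.35 to 0.98, high without saline replicate 1 and low without O304 replicate 1. At this depth, genes of a few counts, such as Lrguk, Plin1 and Siglech, rest on counting error as well.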

Other observations

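Genes of the mouse proximal tubule that depend on androgens or on sex, chosen after their values were seen, differed between libraries of the same sex. Proximal tubule markers differed likewise between these libraries, with a mean log2 level relative to 18 mo of 0.10, −1.12 and −3.26 in saline replicates 1 to 3 and 0.053, 0.053 and −0.20 with O304, and their part in these values was not tested. Kap, an androgen-regulated tubule gene, was at 24479.6, 24241 and 28875 CPM with O304, 18932, 2627 and 175 CPM with saline and 20894, 24573 and 17968 CPM at 18 mo. Slco1a1 and Cyp4a12a, given in the report, were lower in all 3 saline libraries than in the treated ones. Odc1, the first enzyme of polyamine synthesis, was at 912, 1604 and 2229 CPM with O304 and 665, 532 and 321 CPM with saline. Acsm3, an acyl-CoA synthetase, was at 332, 388 and 548 CPM with O304 and 227, 122 and 3.07 CPM with saline, and Slc22a30, an organic anion transporter, at 156, 198 and 210.4 CPM against 109.7, 40.2 and 1.33 CPM. Cyp2j13, a P450 enzyme, stood at 356, 543 and 684 CPM with O304, 312, 260.2 and 45.49 CPM with saline and 253, 409 and 408 CPM at 18 mo.

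The female-biased genes were not uniformly high in saline. Slc7a12, an amino acid transporter, was at 116, 33.7 and 2.42 CPM with O304, 188, 80.2 and 5.497 CPM with saline and 28.2, 9.49 and 14.54 CPM at 18 mo. Prlr, the prolactin receptor, was at 101, 59.7 and 4.65 CPM with O304 and 187, 43.4 and 12.6 CPM with saline. Cyp4a14, which is also a PPARα target, was highest in saline replicate 1, as given in the report.

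Dendritic cell markers had a median log2 fold change of 1.13 (1.84 without saline replicate 1) over 8 genes and 3 without overlap on the high side, and a median of 0.030 where every library had to hold 10 counts. Siglech, of plasmacytoid dendritic cells, was at 1.22, 1.25 and 1.78 CPM with O304 and 0.803, 0.114 and 0.0458 CPM with saline. Xcr1, of cross-presenting dendritic cells, was at 2.85, 3.10 and 2.55 CPM against 2.07, 1.36 and 0.275 CPM. B and plasma cell genes varied within every group, with Igha, the constant region of IgA, at 583, 1675 and 1133 CPM with O304, 138, 248 and 760.3 CPM with saline and 469.9, 332 and 655 CPM at 18 mo. Their median was 0.30 (0.034 without O304 replicate 2 and 1.84 without saline replicate 3) over 13 genes, with 1 without overlap on the high side. Markers of red blood cells had a median of −1.10 (−1.68 without saline replicate 3 and 3.74 without saline replicate 1) over 6 genes, none without overlap, and were highest in saline replicate 1.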
